A study of Mus musculus with 30 samples.

Results

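Foxp3, Ikzf2, Ikzf4, Maf, Rora, Ccr6 and Gata3 are 7 genes grouped here under regulatory T cells and interleukin-17-producing CD8 T cells, called Tc17 cells. They were taken by symbol from the 55573 genes of the count table, and each matched 1 Ensembl gene. The RNA came from mouse CD8 T cells with or without the proprotein convertase Furin, grown in culture with no added cytokine, with TGFB1 or with IL12. Naive CD8+ T cells were the starting material, taken with magnetic beads from lymph nodes and spleen; the donor mice were C57BL/6 and 8 weeks old. They grew for 3 days in a serum-free medium on plate-bound antibodies against CD3 and CD28 (5 µg/ml of each). Wild-type (WT) and Furin-knockout (KO) cells each formed 3 groups of 5 libraries. One group had the antibodies alone, one had recombinant TGFB1 at 0.5 ng/ml and one had recombinant IL12 at 10 ng/ml. The WT library numbers were 62, 67, 71, 72 and 75, and the KO numbers were 63, 68, 70, 73 and 74; values per library are given in that order. Numbers 62 and 63 were male and the others female. The labels do not name the promoter or Cre behind the knockout, the deleted part of Furin, or whether a number stands for 1 animal. The p-values therefore measure the spread between these cultures.

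Foxp3 is the transcription factor that defines regulatory T cells. Ikzf2 (Helios) and Ikzf4 (Eos) are Ikaros-family zinc finger factors found in them, and Eos can act as a partner of Foxp3 in gene silencing. Maf is a bZIP factor of interleukin-10- and interleukin-17-producing T cells, Rora is a nuclear receptor of the type 17 programme, and Ccr6 is the receptor for the chemokine Ccl20 on type 17 cells. Gata3 is the main factor of type 2 cells and is also needed in CD8 and regulatory T cells. TGFB1 signals through SMAD proteins and can induce both Foxp3 and the type 17 programme. Furin cleaves precursor proteins, pro-TGFB1 among them, into their mature forms.

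Levels are CPM, reads scaled to the library total with TMM factors, and fold changes are log2 values from edgeR's quasi-likelihood fit, with the standard error (SE). A gene is called where its Benjamini-Hochberg adjusted p over 11718 tested genes is under 0.05. Library totals ran from 7306151 to 15502443 counts. All 7 genes passed the filter on low counts, but Foxp3 and Maf passed it only through the TGFB1 libraries. Library 62 of the WT TGFB1 group stood apart: its correlation with the rest of its group was 0.97, against at least 0.983 for every other library. It was the lowest of its group for 5 of the 7 genes (Rora, Maf, Ikzf2, Ccr6 and Gata3), and results that rest on it are given with and without it. Library 63, the male of the KO TGFB1 group, was the lowest there for 4 of the 7 (Maf, Ikzf2, Ikzf4 and Ccr6). With 1 male in each group, sex and library cannot be told apart. A fit with a term for sex called 4 of the 7 genes for KO against WT with TGFB1, as the main fit did. Furin itself was at 28.8 to 38.5 CPM in WT and 31.5 to 33.9 CPM in KO without cytokine, at 73.9 to 93.2 and 66 to 90.2 CPM with TGFB1, and at 161 to 533 and 120 to 463 CPM with IL12. The count over the whole Furin gene thus did not separate the genotypes, and the letters KO mean here the libraries so labelled. In bulk RNA, fewer cells expressing a gene and less RNA per cell cannot be told apart.

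Without cytokine, Gata3 had the highest level per length and Maf the lowest. In CPM per kilobase of exon (RPKM), the WT means were 2.56 for Gata3, 0.889 for Ikzf2, 0.538 for Ikzf4, 0.302 for Ccr6, 0.138 for Rora, 0.0601 for Foxp3 and 0.0132 for Maf. With TGFB1 the order in WT became Ccr6 at 8.0 RPKM, Ikzf2 at 4.66, Gata3 at 3.56, Maf at 3.2, Ikzf4 at 1.55, Foxp3 at 0.628 and Rora at 0.473. The KO means with TGFB1 were 4.66 RPKM for Ccr6, 3.24 for Maf, 2.62 for Ikzf2, 2.2 for Foxp3, 1.64 for Gata3, 1.41 for Ikzf4 and 0.278 for Rora. Foxp3 thus stood above Gata3 in the KO means and below it in the WT means.

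**Figure D1:**
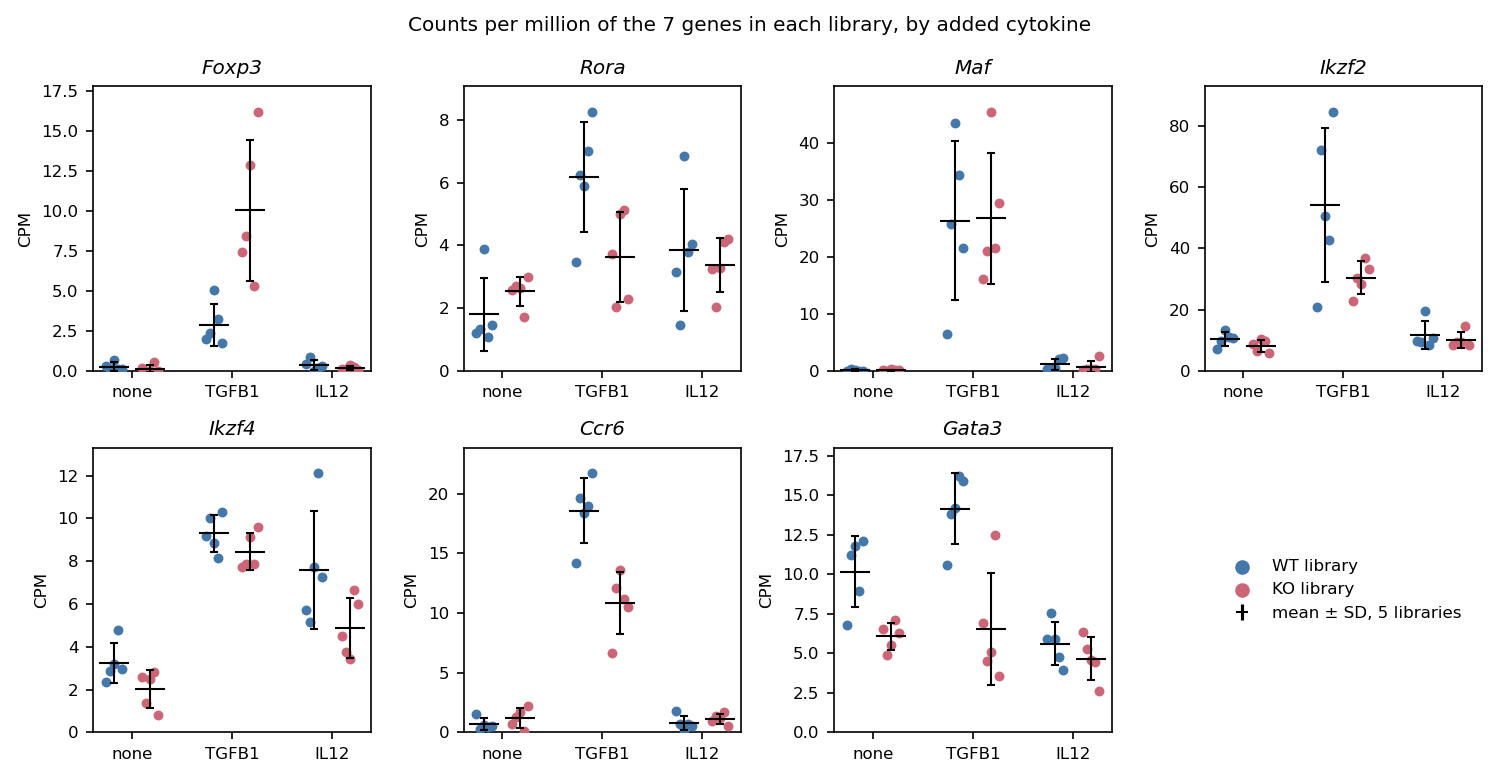
Level of each of the 7 genes (y axis, CPM, linear from 0) by added cytokine (x axis), 1 point a library, WT in blue and KO in red, with the mean ± SD of 5 libraries. Foxp3, Maf, Ikzf2 and Ccr6 stand above their other groups with TGFB1, while Foxp3 is higher and Gata3 lower in most KO than WT libraries there.

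The first question was which of these genes respond to TGFB1. In WT cells 6 of the 7 rose with TGFB1 (Maf, Ccr6, Foxp3, Ikzf2, Rora and Ikzf4), where 37.9% of all tested genes were called, 19.2% higher and 18.6% lower. In KO cells 5 rose (Maf, Foxp3, Ccr6, Ikzf4 and Ikzf2), against 24.5% of all genes called, 13.5% higher and 11% lower. None fell in either genotype. Foxp3 and Maf had to differ, since they entered the test through the TGFB1 libraries. Of the 5 genes that pass the filter without those libraries, 4 rose in WT and 3 in KO, where 18.7% and 12.9% of the 11425 genes that do so rose. For 5 genes in each genotype the TGFB1 libraries did not overlap those without cytokine, against 14.8% of all genes in WT and 20.8% in KO. The median log2 change of the 7 was 2.39 in WT and 2.07 in KO, beside 0.02 and 0.01 over all genes; over the 5 it was 1.79 and 1.9, and the groups did not overlap for 3 of them in each genotype.

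The second question was how the KO differed under TGFB1. Foxp3 was higher in KO, and Gata3, Ikzf2 and Ccr6 were lower, while Maf, Ikzf4 and Rora were not called. Among all tested genes 35.6% were called, 18.3% higher and 17.3% lower, so the 4 calls stand against a background in which many genes moved. The groups did not overlap for Foxp3 and Ccr6, against 7.64% of all genes. The median log2 difference of the 7 was -0.77, beside -0.01 over all genes. The comparisons between genotypes and those between cytokines share libraries, so their values stand side by side and are not independent.

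**Figure D2:**
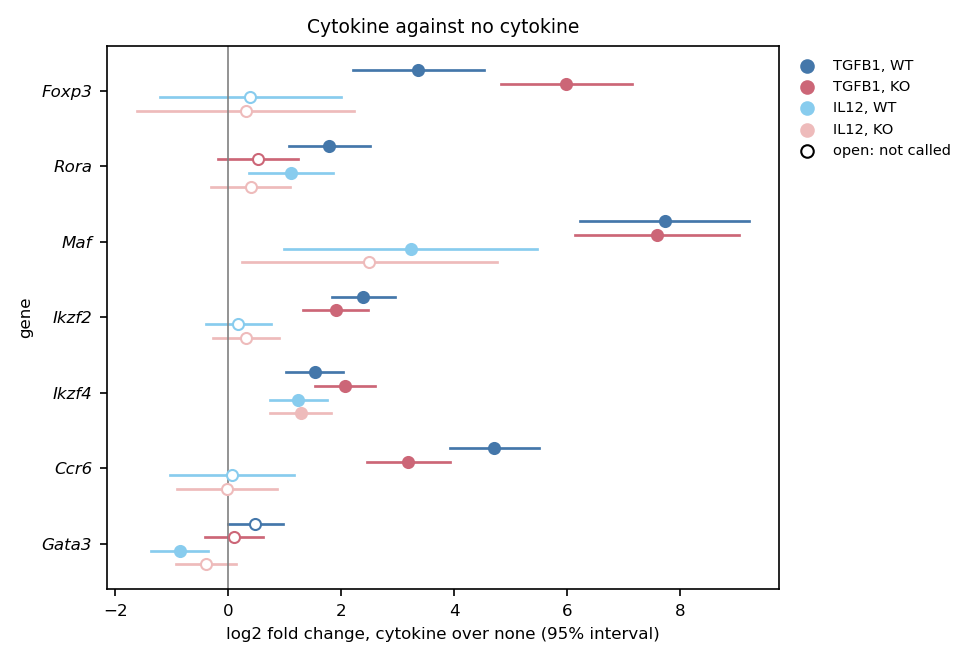
Log2 fold change with its 95% interval (x axis) of each gene (y axis) for TGFB1 and IL12 against no cytokine in WT and KO, with filled points for called changes. Maf has the largest TGFB1 changes (7.72 in WT and 7.59 in KO), Gata3 has no called TGFB1 change, and Ikzf4 is the gene called in all 4 comparisons.

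Foxp3 (ENSMUSG00000039521, GRCm38 chromosome X, 7573644 to 7595245, plus strand) was close to the counting limit without TGFB1. In the WT libraries without cytokine it was at 0.334, 0.103, 0.707, 0.12 and 0.114 CPM, and in KO at 0.179, 0, 0, 0.54 and 0 CPM. A count of 0 there allows a level of up to 0.313, 0.396 and 0.2996 CPM in KO libraries 68, 70 and 74. With TGFB1 the WT libraries held 2.02, 2.36, 5.03, 3.23 and 1.73 CPM of Foxp3, from 18 to 57 reads each. The KO libraries with TGFB1 held 7.45, 8.41, 12.9, 5.31 and 16.2 CPM, from 56 to 176 reads each. The lowest KO library stood just above the highest WT library, and both groups stood above every library without TGFB1.

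The rise of Foxp3 with TGFB1 was 3.36 ± 0.57 (log2, SE, adjusted p = 6.3e-05) in WT and 5.98 ± 0.57 (adjusted p = 5.71e-09) in KO. These sizes rest on 12 WT and 7 KO reads in all without cytokine. Leaving out WT library 71 without cytokine moved the WT value to 4.03, and leaving out KO library 73 without cytokine moved the KO value to 7.29. Between genotypes with TGFB1, Foxp3 was 1.79 ± 0.37 higher in KO (edgeR adjusted p = 0.000898), a ratio of means of 3.5 (10.1 ± 4.41 against 2.87 ± 1.33 CPM, SD, n = 5 each). Without WT library 62 it was 1.69 (adjusted p = 0.000946). The TGFB1 response was 2.62 larger in KO, with a 95% interval of 0.53 to 4.72 and an adjusted p of 0.128 in edgeR, so the difference between the responses was not called. DESeq2 gave 2.7 with an adjusted p of 0.0437.

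Foxp3 shares exon sequence with neighbours: 18.6% of its exon bases lie in Flicr, a noncoding transcript on the same strand, 12.9% in Ccdc22 and 5.81% in Ppp1r3f, both on the opposite strand. The strand setting of the counting is not given in the sources used here, so reads of these overlaps cannot be told apart. Flicr was at a mean of 0.26 to 0.779 CPM in the 6 groups, and was at 0.76 CPM in WT and 0.779 CPM in KO with TGFB1. Between KO and WT with TGFB1, neither Ccdc22 (-0.43, adjusted p = 0.238) nor Ppp1r3f (0.73, adjusted p = 0.101) was called. With TGFB1 in KO, Ppp1r3f rose by 1.17 (adjusted p = 0.0194), to a mean of 1.74 CPM against 10.1 CPM for Foxp3. The part of these overlaps in the Foxp3 values was not tested. None of the 50-base stretches of Foxp3 exons occurs in a gene elsewhere in the annotation.

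Ikzf2 (ENSMUSG00000025997, chromosome 1, 69531214 to 69687245, minus strand) was expressed in every group and rose with TGFB1 in both genotypes. Without cytokine the WT libraries held 7.01, 9.87, 13.2, 11 and 10.6 CPM of Ikzf2 and the KO libraries 8.67, 6.57, 10.4, 9.61 and 5.69 CPM. With TGFB1 the WT libraries held 20.7, 72.1, 50.7, 42.7 and 84.5 CPM. Library 62 was far below the other 4, and the next lowest was at 42.7 CPM. The KO libraries with TGFB1 held 22.7, 30.3, 28.5, 37 and 33.3 CPM, all below those 4 WT libraries and above library 62. The rise was 2.39 ± 0.27 in WT (adjusted p = 2.56e-07) and 1.9 ± 0.28 in the KO cells (adjusted p = 7.5e-06).

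With TGFB1, Ikzf2 was lower in KO by 0.83 on the log2 scale (SE 0.25, edgeR adjusted p = 0.0119). Without WT library 62 the difference was -1.03 (adjusted p = 0.000307). The call was lost without WT library 75 (-0.62, adjusted p = 0.0658) and in a fit of these 2 groups alone (-0.83, adjusted p = 0.0615). The difference between the TGFB1 responses was -0.49 with a 95% interval of -1.28 to 0.29 (adjusted p = 0.459).

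Ikzf4 (ENSMUSG00000002578, chromosome 10, 128630843 to 128645991, minus strand), the other Ikaros factor, rose with TGFB1 to about the same level in both genotypes. It went from 2.34, 2.88, 3.18, 4.79 and 2.95 CPM to 9.18, 10, 8.83, 8.16 and 10.3 CPM in WT. In KO it went from 2.59, 1.36, 2.51, 2.81 and 0.799 CPM to 7.71, 7.87, 9.14, 7.86 and 9.58 CPM. The libraries of each group lay close together with TGFB1, and no TGFB1 library reached down to those without cytokine. The rise was 1.53 ± 0.24 in WT (adjusted p = 3.49e-05) and 2.07 ± 0.26 in the KO cells (adjusted p = 6.44e-07). KO against WT with TGFB1 was -0.14 with a 95% interval of -0.59 to 0.32 (adjusted p = 0.66). The annotation's exons of Ikzf2 and Ikzf4 share no 50-base stretch with each other or with Ikzf1, Ikzf3 and Ikzf5.

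Maf (ENSMUSG00000055435, chromosome 8, 115682942 to 115707794, minus strand) had the largest TGFB1 response of the 7 genes. Without cytokine it had 5 reads over the WT libraries (0, 0.308, 0.236, 0 and 0 CPM) and 6 over the KO libraries (0.0894, 0, 0.264, 0.108 and 0.2 CPM). A count of 0 allows up to 0.334, 0.359 and 0.3405 CPM in WT libraries 62, 72 and 75, and up to 0.313 CPM in KO library 68. With TGFB1 the WT libraries held 6.5, 25.8, 43.5, 34.3 and 21.5 CPM of Maf and the KO libraries 16.1, 21.1, 45.4, 21.6 and 29.4 CPM. Every TGFB1 library was far above every library without cytokine, and the lowest was again WT library 62. The rise was 7.72 ± 0.73 in WT (adjusted p = 1.06e-08) and 7.59 ± 0.71 in the KO cells (adjusted p = 4.63e-09). The sizes rest on a handful of reads, and without WT library 67 the WT value was 8.55.

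KO and WT had near-equal mean levels of Maf with TGFB1 (26.7 ± 11.5 and 26.3 ± 13.9 CPM, SD, n = 5 each). The difference was 0.02 with a 95% interval of -0.75 to 0.79 (adjusted p = 0.975). Without WT library 62 it was -0.23 (adjusted p = 0.612). Of the 50-base stretches of Maf exons, 0.33% also occur in genes that do not overlap it.

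Rora (ENSMUSG00000032238, chromosome 9, 68653786 to 69388246, plus strand) rose with TGFB1 in WT, and its KO change was not called. The WT libraries held 1.22, 1.34, 3.89, 1.08 and 1.48 CPM without cytokine and 3.47, 6.25, 5.91, 7.02 and 8.26 CPM with TGFB1. The KO libraries held 2.59, 2.71, 2.64, 1.73 and 3 CPM without cytokine and 3.72, 2.05, 4.99, 5.12 and 2.3 CPM with TGFB1. In WT, library 71 without cytokine (3.89 CPM) exceeded library 62 with TGFB1, and the KO groups overlapped. The change was 1.79 ± 0.35 in WT (adjusted p = 0.000328) and 0.52 ± 0.35 in the KO cells (adjusted p = 0.292).

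The difference of Rora between these responses was -1.27 with a 95% interval of -2.28 to -0.25 (edgeR adjusted p = 0.129). It was called without WT library 62 with TGFB1 (-1.41, adjusted p = 0.0427) and without WT library 71 without cytokine (-1.76, adjusted p = 0.0398). With TGFB1, KO against WT was -0.77 ± 0.32 for Rora (adjusted p = 0.0626). That difference was called without WT library 62 (-0.91, adjusted p = 0.0223), KO library 70 (-0.91, adjusted p = 0.0465) or KO library 73 (-0.94, adjusted p = 0.0329).

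Ccr6 (ENSMUSG00000040899, chromosome 17, 8236043 to 8257141, plus strand) was near the counting limit without TGFB1 and had the highest level per length of the 7 with it. Without cytokine the WT libraries held 1.56, 0.308, 0.589, 0.479 and 0.568 CPM and the KO libraries 0.715, 1.25, 1.72, 0.108 and 2.2 CPM. With TGFB1 it was at 14.2, 19.6, 18.4, 19 and 21.7 CPM in WT and at 6.65, 12.1, 13.6, 11.2 and 10.5 CPM in KO. All WT libraries with TGFB1 lay above all KO libraries with it. The rise was 4.71 ± 0.39 in WT (adjusted p = 6.46e-10) and 3.18 ± 0.36 in the KO cells (adjusted p = 1.19e-07).

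With TGFB1, Ccr6 was lower in KO by 0.78 on the log2 scale (SE 0.28, edgeR adjusted p = 0.0324), a mean of 10.8 ± 2.6 against 18.6 ± 2.74 CPM (SD, n = 5 each). The adjusted p rose above 0.05 when any of 6 libraries was left out (WT 67, 71 and 75, KO 63, 68 and 74), to at most 0.0837 without KO library 63. Without WT library 62 the difference was -0.86 (adjusted p = 0.0169). The TGFB1 responses of Ccr6 differed by -1.52, with a 95% interval of -2.69 to -0.36 and an adjusted p of 0.115. Leaving out WT library 62 with TGFB1 gave -1.6 (adjusted p = 0.0495), and leaving out KO library 73 without cytokine gave -1.81 (adjusted p = 0.0434). No exon of Ccr6 overlaps another gene.

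Gata3 (ENSMUSG00000015619, chromosome 2, 9857078 to 9890034, minus strand) was the member whose TGFB1 response was called in neither genotype, while its level with TGFB1 differed between them. Without cytokine the WT libraries held 6.78, 11.2, 11.8, 8.97 and 12.1 CPM and the KO libraries 6.52, 4.9, 5.54, 7.13 and 6.29 CPM. With TGFB1 the WT libraries held 10.6, 13.8, 14.2, 16.2 and 15.9 CPM and the KO libraries 6.92, 4.53, 5.09, 12.5 and 3.59 CPM. KO library 73 was the single KO library within the WT range with TGFB1. The TGFB1 change was 0.48 ± 0.24 in WT (adjusted p = 0.112) and 0.1 ± 0.25 in the KO cells (adjusted p = 0.81); the WT value was 0.49 with an adjusted p of 0.0433 in a fit of those 2 groups alone.

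With TGFB1, Gata3 was lower in KO by 1.11 on the log2 scale (SE 0.24, edgeR adjusted p = 0.00133), a mean of 6.53 ± 3.56 against 14.1 ± 2.22 CPM (SD, n = 5 each). Without WT library 62 the difference was -1.2 (adjusted p = 0.000339). The difference between the TGFB1 responses was -0.37 with a 95% interval of -1.08 to 0.34 (adjusted p = 0.543). Over all 7 genes no difference between the TGFB1 responses was called by edgeR, beside 3.3% of all genes (1.61% higher and 1.69% lower); Foxp3, Rora and Ccr6 had an unadjusted p under 0.05, and DESeq2 called 1 gene, Foxp3.

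**Figure D3:**
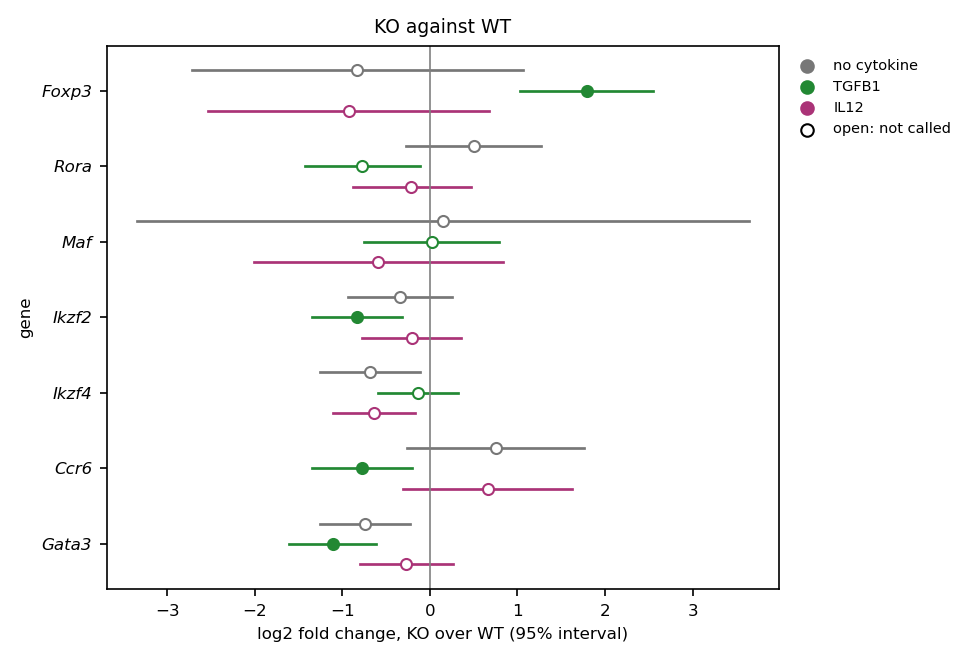
Log2 fold change of KO over WT with its 95% interval (x axis) for each gene (y axis) without cytokine, with TGFB1 and with IL12, with filled points for called differences. All 4 filled points belong to TGFB1: Foxp3 at 1.79 lies to the right of 0, and Ikzf2 (-0.83), Ccr6 (-0.78) and Gata3 (-1.11) lie to the left.

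Promoter sequences of Ccr6, Foxp3 and Gata3 are shown because the first 2 rose with TGFB1 and Gata3 was not called. RefSeq promoters of GRCm38.p6 matched 4 of the 7 genes (these and Rora), and the windows are the bases upstream of the first start site in the table, cut before any protein-coding exon. Foxp3 lies on the plus strand at chrX:7579426-7579566 (250 to 110 bases before the start), Ccr6 on the plus strand at chr17:8235793-8236042 and Gata3 on the minus strand at chr2:9878601-9878850. Capitals mark matches to 1 of 5 motifs searched on both strands.
Ccr6: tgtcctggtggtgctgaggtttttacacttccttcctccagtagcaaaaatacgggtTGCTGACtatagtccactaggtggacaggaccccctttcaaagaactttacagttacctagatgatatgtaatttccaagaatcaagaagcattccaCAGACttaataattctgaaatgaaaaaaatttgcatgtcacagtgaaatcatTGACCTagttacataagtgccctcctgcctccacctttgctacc
Foxp3: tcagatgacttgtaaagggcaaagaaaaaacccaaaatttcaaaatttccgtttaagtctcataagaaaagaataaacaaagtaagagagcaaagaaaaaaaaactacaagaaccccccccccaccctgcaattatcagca
Gata3: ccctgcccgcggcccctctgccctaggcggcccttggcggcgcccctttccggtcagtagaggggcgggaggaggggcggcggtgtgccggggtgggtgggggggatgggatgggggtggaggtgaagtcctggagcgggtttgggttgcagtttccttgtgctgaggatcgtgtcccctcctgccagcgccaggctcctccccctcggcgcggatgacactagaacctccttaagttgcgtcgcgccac
The motif searched for SMAD proteins was CAGAC. For the factor family of Gata3 the letters searched were AGATAA. The receptor family of Rora was represented by AGGTCA, the forkhead family of Foxp3 by GTAAACA, and the family of Maf by TGCTGAC. Ccr6 held TGCTGAC starting 193 bases before the start site, CAGAC at 96 bases and AGGTCA at 44 bases, the last on the minus strand (printed as its reverse complement). Among 32851 promoter windows of 250 bases, 3.81% held TGCTGAC, 42.2% CAGAC, 14% AGGTCA, 9.99% AGATAA and 3.17% GTAAACA. None of the 5 motifs was found in the windows of Gata3 and Rora, or in the 141 bases of Foxp3. In windows of that length and place, 27.3% of promoters held CAGAC, 8.05% AGGTCA, 6.27% AGATAA, 1.95% TGCTGAC and 1.91% GTAAACA. A match is a description of letters and not evidence of binding.

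Without cytokine, none of the 7 genes was called between KO and WT by edgeR, where 2.1% of all genes were called (1.08% higher and 1.02% lower), and none had groups that did not overlap (6.55% of all genes). DESeq2 also called none of the 7. Ikzf4 and Gata3 had an unadjusted p under 0.05. Gata3 was at a mean of 6.08 ± 0.867 CPM in KO and 10.2 ± 2.26 CPM in WT (SD, n = 5 each), a difference of -0.74 ± 0.25 (adjusted p = 0.108); in a fit of these 2 groups alone its adjusted p was 0.0209. Ikzf4 was at 2.01 ± 0.882 against 3.23 ± 0.925 CPM (-0.68 ± 0.28, adjusted p = 0.186). For Foxp3 (-2.72 to 1.06) and Maf (-3.34 to 3.64) the 95% intervals were too wide to show a difference at this depth. The intervals were -0.27 to 1.27 for Rora, -0.93 to 0.25 for Ikzf2 and -0.26 to 1.76 for Ccr6.

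IL12 moved a smaller part of the set. In WT cells Maf, Ikzf4 and Rora rose with IL12 and Gata3 fell, 4 of 7 beside 18.9% of all genes called (10.5% higher and 8.3% lower). In KO cells Ikzf4 alone was called, a rise, beside 14.2% of all genes (8.49% higher and 5.74% lower). The groups did not overlap for 1 gene in each genotype, Ikzf4, against 12.5% of all genes in WT and 17.3% in KO. The median log2 change of the 7 was 0.39 in WT and 0.31 in KO, beside 0.01 and 0 over all genes.

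Ikzf4 held 5.74, 5.14, 7.71, 12.1 and 7.25 CPM with IL12 in WT and 4.51, 3.76, 3.45, 6.66 and 6.01 CPM in KO. Each IL12 library was above all libraries of its genotype without cytokine. The rise of Ikzf4 was 1.24 ± 0.25 in WT (adjusted p = 0.000774) and 1.28 ± 0.26 in the KO cells (adjusted p = 0.00133). With IL12 its KO level was -0.64 ± 0.23 relative to WT (adjusted p = 0.0884), which passed the threshold without WT library 62 (0.0468), WT library 67 (0.0391) or KO library 73 (0.0447).

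Gata3 held 5.88, 7.56, 5.88, 4.74 and 3.94 CPM with IL12 in WT and 6.36, 5.29, 4.57, 4.44 and 2.64 CPM in KO. In WT it fell by 0.86 (SE 0.25, adjusted p = 0.0166), with 1 library (67) within the range without cytokine. That call was lost without WT IL12 library 72 (adjusted p = 0.0513) or 75 (adjusted p = 0.0575). In KO the change of Gata3 was -0.39 ± 0.26 (adjusted p = 0.343), and with IL12 the genotypes differed by -0.27 (95% interval -0.8 to 0.26, adjusted p = 0.55). The IL12 responses of Gata3 differed by 0.47 ± 0.36 (adjusted p = 0.997).

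Maf held 0.273, 0.581, 0.482, 2.11 and 2.28 CPM with IL12 in WT and 0.231, 0.318, 0.345, 0.342 and 2.55 CPM in KO, well below its levels with TGFB1. The WT rise was 3.23 ± 1.1 (adjusted p = 0.0374) from 5 reads to 55 over the 5 libraries of each group. It was lost when any of 6 libraries was left out, with an edgeR adjusted p of up to 0.125 without WT IL12 library 75. The WT rise was 4.06 without WT library 67 without cytokine. In a fit of only the groups compared, Maf did not pass the filter on low counts and was not tested. In KO the change of Maf was 2.49 ± 1.1 (edgeR adjusted p = 0.133), and DESeq2 called it (2.57, adjusted p = 0.0314). Without KO library 74, which held most of the KO reads with IL12, it was 1.24 (adjusted p = 0.622).

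Rora held 3.14, 1.45, 6.84, 3.79 and 4.04 CPM with IL12 in WT and 3.24, 2.04, 3.28, 4.1 and 4.2 CPM in KO. Both IL12 groups overlapped those without cytokine. The WT rise of 1.11 ± 0.36 (adjusted p = 0.0315) was lost when any of 7 libraries was left out, to 0.79 (adjusted p = 0.136) without WT IL12 library 71, and in a fit of the 2 groups alone (adjusted p = 0.0921). In KO the change of Rora was 0.4 ± 0.34 (adjusted p = 0.493).

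Foxp3, Ikzf2 and Ccr6 were not called with IL12 in either genotype. Foxp3 held 0 to 0.872 CPM in WT, where the count of 0 in library 71 allows up to 0.289 CPM, and 0.0824 to 0.345 CPM in KO. Ikzf2 held 8.53 to 19.6 CPM in WT and 8.44 to 14.5 CPM in KO, and Ccr6 held 0.193 to 1.78 and 0.577 to 1.71 CPM. For Ikzf2 the 95% interval of the IL12 change was -0.4 to 0.75 in WT and -0.27 to 0.89 in KO. Between KO and WT with IL12 none of the 7 was called by edgeR or DESeq2, beside 6.78% of all genes called by edgeR (2.76% higher and 4.01% lower); 1 (Ikzf4) had an unadjusted p under 0.05, and none had groups apart (5.06% of all genes). No gene of the whole table had a called difference between the genotypes in the IL12 response (0% in edgeR, 513 genes at an unadjusted p under 0.05, 0 by DESeq2), and none of the 7 was at an unadjusted p under 0.05.

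The other genes of the regulatory and type 17 programmes were read from lists, which are described by counts and medians. Of 20 other genes associated with regulatory T cells, 7 rose and 8 fell with TGFB1 in WT, where 19.2% of all genes rose and 18.6% fell. In KO 7 rose and 5 fell, against 13.5% and 11% of all genes. Of these 20, 1 passed the filter only through the TGFB1 libraries. The medians were -0.27 and 0.49, beside 0.02 and 0.01 over all genes. The smallest adjusted p in both genotypes belonged to Nt5e and Itgae. Nt5e (CD73, which makes adenosine) rose by 5.45 ± 0.33 in WT (adjusted p = 6.71e-13) and by 5.38 ± 0.32 in the KO cells (adjusted p = 9.08e-13). Itgae (CD103, an integrin of tissue-resident cells) rose by 5.73 ± 0.45 in WT (adjusted p = 2.58e-10) and by 5.14 ± 0.49 in the KO cells (adjusted p = 7.37e-09). Genes of the regulatory list thus moved both ways while Foxp3 rose.

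Between KO and WT with TGFB1, 6 of those 20 genes were higher and 3 lower (median 0.2, against -0.01 over all genes), where 35.6% of all genes were called, 18.3% higher and 17.3% lower. Il2ra, the interleukin-2 receptor alpha chain CD25, was 1.3 ± 0.25 higher in KO (988 against 401 CPM, adjusted p = 0.000474). Lrrc32, which encodes the TGFB1-binding protein GARP, was 1.89 ± 0.45 higher (3.31 against 0.89 CPM, adjusted p = 0.00238). Itgae was 1.88 lower on the log2 scale in KO (log2 fold change -1.88, 51.2 against 189 CPM, adjusted p = 0.000391), and Il2rb, the beta chain, was also lower (-0.69, 620 against 1000 CPM, adjusted p = 0.000862). Foxp3, Il2ra and Lrrc32 were thus higher in KO, and Ikzf2 and Itgae lower, within the same cultures. Without cytokine the KO means of Itgae (1.43 against 3.58 CPM) and Il2rb (443 against 653 CPM) were also below WT. Those of Il2ra (845 against 814 CPM) and Lrrc32 (2.34 against 2.29 CPM) were near WT. With IL12, Il2rb was called lower in KO (-0.46, edgeR adjusted p = 0.0465). In the comparison of TGFB1 responses 2 of the 20 were called higher (Il2ra, Socs2) and 1 lower (Nrp1). Over all tested genes 3.3% were called there, 1.61% higher and 1.69% lower. Itgae (-0.59, edgeR adjusted p = 0.667) and Il2rb (-0.13, edgeR adjusted p = 0.73) were not called in it.

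Of 20 factors known to bind or control the Foxp3 gene, 4 rose and 1 fell with TGFB1 in WT, a smaller share than the 37.9% called over all genes. In KO 5 rose and 3 fell, where 24.5% of all genes were called (medians 0.12 and -0.03). Stat5b, a transducer of interleukin-2 signals, rose by 0.76 ± 0.11 in WT (adjusted p = 8.19e-06) and 0.91 ± 0.11 in the KO cells (adjusted p = 3.01e-07), and Foxo1 by 0.81 ± 0.12 and 0.69 ± 0.13 (adjusted p = 2.19e-05 and 0.00016). In the KO cells with TGFB1, Smad2 was higher (0.5 ± 0.07, adjusted p = 7.88e-05), and Satb1 (-1.13, adjusted p = 0.000216), Foxo1 (-0.44, adjusted p = 0.00749) and Smad3 (-0.95, adjusted p = 0.0341) were lower; the median of the 20 was -0.08. Smad2 and Smad3 both transmit TGFB1 signals, and with TGFB1 their KO levels differed from WT in opposite directions. The KO mean of Smad3 was also lower without cytokine (6.9 against 16 CPM) and with IL12 (10.9 against 17.8 CPM). Smad2 means were near-equal without cytokine (87 CPM in KO and 87.7 CPM in WT). The TGFB1 responses differed for Smad2 (0.51 ± 0.1, edgeR adjusted p = 0.0159). For Smad3 that difference was not called (0.25 ± 0.5, edgeR adjusted p = 0.798).

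The Tc17 list held 20 other genes, of which 13 were tested and 7 were below the filter, Il17a, Il22 and Il21 among them. With TGFB1, 7 of the 13 rose and 2 fell in each genotype (medians 1.34 in WT and 0.9 in KO, beside 0.02 and 0.01 over all genes). Over all genes 19.2% rose and 18.6% fell in WT, and 13.5% rose and 11% fell in KO. Of the 11 that pass the filter without the TGFB1 libraries, 5 rose and 2 fell in each genotype (medians 0.8 and 0.48). Among all genes that do so, 18.7% rose in WT and 12.9% in KO. Il17f had to differ, since it passed the filter only through the TGFB1 libraries. It rose by 6.13 ± 0.63 in WT (0.205 to 15.1 CPM, edgeR adjusted p = 4.56e-08) and by 6.4 ± 0.62 in KO (0.214 to 18.8 CPM, adjusted p = 7.37e-09). Il6ra, the interleukin-6 receptor, rose by 2.5 ± 0.26 in WT and 2.18 ± 0.26 in KO (adjusted p = 6.8e-08 and 2.54e-07). Il17a, which was not tested, was at a mean of 0.903 CPM in WT and 0.875 CPM in KO with TGFB1. Without cytokine it was at 0 in both groups, which allows up to 0.0676 CPM in WT and 0.063 CPM in KO (3 counts over the group). Relative to WT, the KO cells with TGFB1 had a changed level of 4 of the 13, a share below the 35.6% of all genes called: Ahr (1.65 ± 0.31, adjusted p = 0.000457) and Irf4 (0.78 ± 0.2, adjusted p = 0.00433) were higher and Stat3 (-0.56, adjusted p = 0.00221) and Il6st (-0.59, adjusted p = 0.0397) lower.

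**Figure D4:**
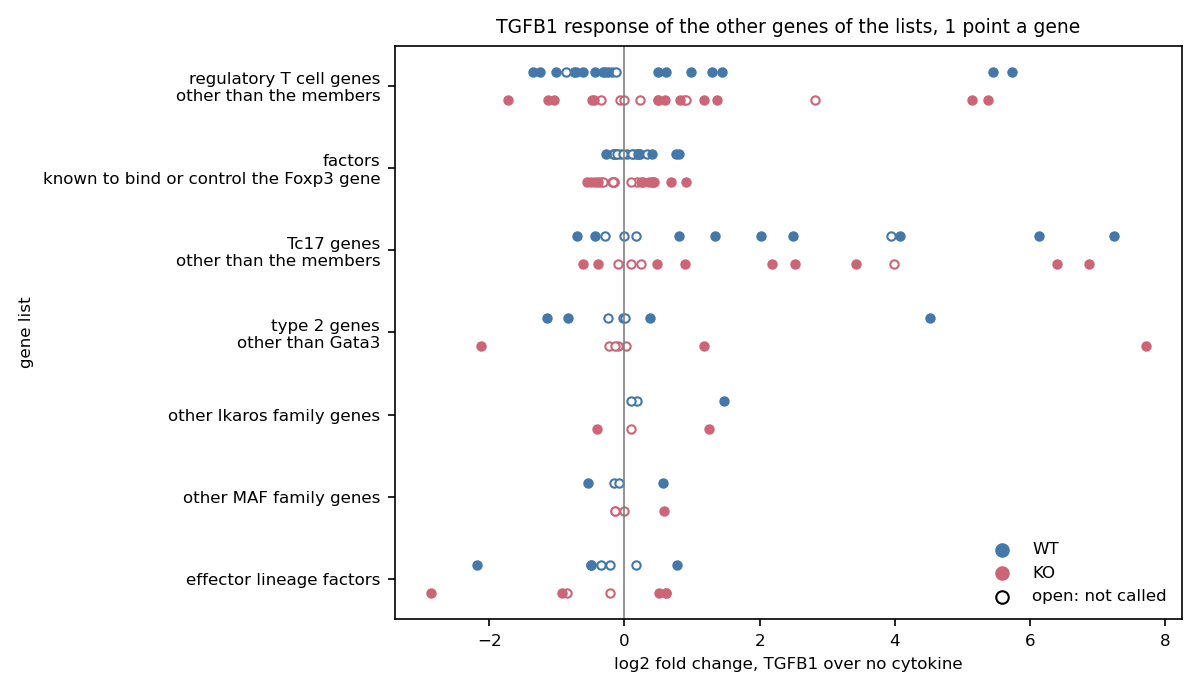
Log2 fold change with TGFB1 (x axis) of the tested genes of each list (y axis), 1 point a gene, WT in blue and KO in red, with filled points for called changes. Tc17 genes have 7 filled points above 0 and 2 below in each genotype, while the regulatory T cell genes have 7 above and 8 below in WT. Over all tested genes 19.2% rose and 18.6% fell in WT, and 13.5% rose and 11% fell in KO. Some points of these lists are genes that passed the filter only through the TGFB1 libraries.

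With IL12, 5 of the 13 Tc17 genes rose and 1 fell in WT, where 10.5% of all genes rose and 8.3% fell. In KO 3 rose and 2 fell, against 8.49% and 5.74% of all genes. In each of the Tc17 and regulatory lists, 1 gene that rose passed the filter only through the IL12 libraries. Il21r rose in both (1.01 ± 0.13 for WT cells, adjusted p = 5.28e-06, and 1.23 ± 0.13 for KO cells, adjusted p = 5.39e-07), while Il6ra fell in both (-1.25, adjusted p = 0.00482, and -1.44, adjusted p = 0.000981). Of the 20 regulatory genes, 5 rose and 1 fell in WT and 3 rose in KO. Il10 was the regulatory gene that passed the filter only through the IL12 libraries, so its rise was partly set by the filter. It rose by 6.26 ± 0.94 in WT (0.0664 to 6.06 CPM, edgeR adjusted p = 2.93e-05) and 4.32 ± 1.22 in KO (0.0395 to 1.08 CPM, adjusted p = 0.0157). With IL12, Il10 was lower in KO by 2.5 on the log2 scale (SE 0.59, edgeR adjusted p = 0.0132). The same limit of the filter holds for this value, since Il10 entered the test through these libraries. The IL12 responses of Il10 differed by -1.94 ± 2.96 (edgeR adjusted p = 0.997), which was not called. Of 20 Foxp3-controlling factors 4 rose and 2 fell in WT and 6 rose in KO. Between KO and WT with IL12, 3 of the 20 regulatory genes, Il10 among them, were lower and none higher, and none of the 13 Tc17 genes was called. In that comparison 6.78% of all genes were called, 2.76% higher and 4.01% lower.

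Genes related to Gata3, to the Ikaros factors and to Maf were called in both directions with TGFB1, where 37.9% of all genes were called in WT and 24.5% in KO. Of 12 other type 2 genes 7 were tested, and Il4, Il5 and Il13 were not, with group means of at most 0.533 CPM. With TGFB1, 2 of the 7 rose in each genotype, with 2 falling in WT and 1 in KO. Of the 6 that pass the filter without the TGFB1 libraries, 1 rose in each genotype, with 2 falling in WT and 1 in KO. Ccr8, a chemokine receptor, had to differ, since it entered the test through the TGFB1 libraries. Its rise was 4.52 ± 0.59 in WT (0.207 to 4.95 CPM, edgeR adjusted p = 5.17e-06). In KO Ccr8 was at 0 in all libraries without cytokine and at a mean of 2.62 CPM with TGFB1. In KO relative to WT with TGFB1, Ccr4 was higher (0.96 ± 0.28, adjusted p = 0.00955) and Zfpm1, a cofactor of GATA factors, lower (-0.37, adjusted p = 0.0304). Among the other Ikaros genes, Ikzf3 rose with TGFB1 by 1.48 ± 0.21 in WT and 1.25 ± 0.21 in KO (adjusted p = 7.66e-06 and 6.24e-05), and Ikzf1 was lower in KO with TGFB1 (-0.63, adjusted p = 0.000393), as Ikzf2 was. Among 5 relatives and partners of Maf, 4 were tested, and Maff (0.88 ± 0.21, adjusted p = 0.00235) and Mafg (0.6 ± 0.14, adjusted p = 0.00249), small MAF proteins, were higher in KO with TGFB1 while Maf was not called. Of 7 factors of effector lineages, 6 rose with IL12 in each genotype, where 10.5% of all genes rose in WT and 8.49% in KO. Tbx21, the T-bet gene, rose by 1.83 ± 0.19 in WT (edgeR adjusted p = 1.74e-07) and 1.62 ± 0.19 in the KO cells (adjusted p = 9.81e-07). With TGFB1, Eomes fell in both (-2.18 for WT cells, adjusted p = 1.11e-05, and -2.87 for KO cells, adjusted p = 3.17e-06), and it was lower in KO than in WT (-1.72, adjusted p = 0.00336).

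The labelled cell type was read from marker genes. Cd8a was at a mean of 500 to 1000 CPM in the 6 groups, and Cd4 was at most 2.37 CPM in any library. The summed level of 5 CD8 T cell genes was 1890 to 2220 CPM in WT and 1910 to 2030 CPM in KO without cytokine. With TGFB1 it was 2210 to 3700 CPM in WT and 1770 to 2440 CPM in KO, and all 5 rose in WT, 1 rose in KO and 4 were lower in KO than in WT. Over all tested genes, 19.2% rose with TGFB1 in WT and 13.5% in KO. Between KO and WT with TGFB1, 35.6% of all genes were called, 17.3% lower. These 4 CD8 genes thus moved in the same direction as Ikzf2, Ccr6 and Gata3 and opposite to Foxp3 between the genotypes; their part in these results was not tested. The summed level of 3 CD4 T cell genes was 19 to 28.1 CPM in WT and 17.7 to 26.5 CPM in KO with TGFB1, and none of the 3 was called between the genotypes. It was 14.1 to 21.1 CPM in WT and 11.7 to 16.6 CPM in KO without cytokine, and Zbtb7b rose with TGFB1 in both. Of 5 B cell genes, Pax5 was at 0 in every library without IL12, while Cd79b was lower in KO in all 3 conditions. The 5 gamma delta genes summed to 4.41 to 10.4 CPM in WT and 4.74 to 6.69 CPM in KO with TGFB1, against 7.81 to 19.7 and 6.49 to 17.5 CPM without cytokine. Of these genes 4 were tested, and 2 fell with TGFB1 in WT and 4 in KO, where 18.6% and 11% of all genes fell. The 4 genes of natural killer and innate lymphoid cells summed to a median of 18.6 CPM in WT and 19.2 CPM in KO with TGFB1, against 3 and 6.19 CPM without cytokine. Of these, Ncr1 and Klrb1c were at 0 in all TGFB1 libraries. Of the 2 tested, 1 rose in each genotype and Il1rl1 fell in KO. The gene that rose made up most of the sum with TGFB1, where Il1rl1 was at a mean of 1.23 CPM in WT and 0.664 CPM in KO. The gamma delta list and this 1 gene thus differed between cultures with and without TGFB1. Their part in the TGFB1 changes of the 7 genes was not tested. The 6 myeloid genes summed to at most 4.99 CPM in any library.

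For each of the 7 genes the genes with the most similar log2 CPM over the 30 libraries were found among genes with a mean of at least 4 CPM. These correlations are descriptions over libraries that share the 6 groups. Foxp3 was closest to Tnfrsf13b (r = 0.94), Vim (0.928) and Aqp3 (0.918), and Tnfrsf13b, like Foxp3, had its highest mean in KO with TGFB1 (73.1 CPM, against 37 CPM in WT). Maf was closest to Nt5e (0.965), Maged1 (0.965) and Skil (0.95), Ikzf2 to Cd96 (0.949), Itgae (0.943) and Cd72 (0.936), and Ccr6 to Tsc22d1 (0.928), Ptgfrn (0.921) and Tbc1d4 (0.918). The closest genes to Gata3 included Lsp1 (0.931) and Paqr4 (0.925), Ikzf4 was closest to Stat5b (0.91), Kit (0.897) and Maged2 (0.891), and Rora to Tnip1 (0.843), Eva1b (0.837) and Ormdl3 (0.828).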

How the data were processed

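The 30 libraries came from poly(A)-selected RNA with a directional kit, per the labels' protocols. Per the submitters' processing notes, the genome was GRCm38 and the tools included STAR, Trim Galore, FastQC and DESeq2. How reads were counted, with which strand setting and annotation release, is not given in the sources used here. The deposited values were whole-number raw read counts per Ensembl gene. Symbols and positions were looked up by identifier in GENCODE vM21, and 93 genes had no symbol (0.00021% of all reads).

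The analysis used edgeR 4.0.16 under R 4.3.3. filterByExpr with a minimum count of 10 left 11718 genes with 99.88% of the counts. The quasi-likelihood model had a mean for each of the 6 groups, TMM factors and all 30 libraries, and tests were two-sided with Benjamini-Hochberg adjustment over all genes. Intervals of fold changes are 95%. CPM use the TMM factors, RPKM also the summed exon length, and a count of 0 is given as 3 counts of the library, for counting error only. DESeq2 1.42.0, other filters and scaling, a term for sex, only the groups compared, and each library left out were alternatives. The edgeR fit was tested on simulated data.

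The 7 genes and the lists were chosen with earlier results of these data known, so no count of them is independent support. All 7 are named in every comparison; from each list the text names up to 4 genes with the smallest adjusted p, and 3 genes nearest to each of the 7, except a few genes that are not reported here. Genes named outside this rule (Il17a, Il4, Il5, Il13, Furin and the overlapping neighbours) were chosen after their values were seen. No pair of libraries in a group agreed within sampling noise (mean chi-square per gene at least 2.35 over 60 pairs).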

Additional observations from a re-analysis of the deposited data

Results flagged for a closer look

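In 5 of the 42 groups of 5 libraries (7 genes in 6 groups), 1 library lay far from the other 4, by a gap over 0.71 of the group's range; chance alone flags about 1 group in 20. Rora was at 3.89 CPM in WT library 71 without cytokine, against 1.08 to 1.48 CPM in the others. Ccr6 was at 1.56 CPM in WT library 62 without cytokine, against 0.308 to 0.589 CPM. Maf was at 2.55 CPM in KO library 74 with IL12, against 0.231 to 0.345 CPM. Ikzf2 was at 19.6 CPM in WT library 71 with IL12 (others 8.53 to 10.6 CPM) and at 14.5 CPM in KO library 73 with IL12 (others 8.44 to 9.49 CPM).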

How the results depend on the processing

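The 63 log2 fold changes of the 7 genes were recomputed under the alternatives, which gave 1177 values: 1088 kept their direction and side of the threshold, 24 were no longer called, 14 were newly called and 51 changed sign. None of the 20 called changes changed sign, and 15 of the 20 stayed called in every alternative. The exceptions are given with each gene; the cause was not tested.

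The number of the 7 genes called moved to 2 with IL12 in KO (Ikzf4 and Maf) and to 1 for the difference in TGFB1 responses (Foxp3) with DESeq2. With only the groups compared it moved to 1 for KO against WT without cytokine (Gata3) and to 2 with IL12 in WT (Ikzf4 and Gata3). In that IL12 fit Rora was not called, and Maf did not pass the filter and was not tested. Leaving out each replicate in turn gave 2 to 5 for KO against WT with TGFB1, 0 to 1 with IL12, 1 to 4 for IL12 in WT and 0 to 2 for the difference in TGFB1 responses.

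All sign changes came from leaving out 1 replicate. The ranges over left-out libraries were, for KO against WT, -0.15 to 0.98 for Maf without cytokine, -0.26 to 0.28 for Maf with TGFB1, and -0.42 to 0.11 for Rora and -0.37 to 0.08 for Ikzf2 with IL12. For Gata3 with TGFB1 in KO the range was -0.28 to 0.26. For IL12 in WT they were -0.29 to 1.06 for Foxp3, -0.1 to 0.28 for Ikzf2 and -0.4 to 0.6 for Ccr6, and for IL12 in KO -0.01 to 1.61 for Foxp3 and -0.31 to 0.34 for Ccr6. For the differences between responses they were -0.96 to 0.17 for Maf with TGFB1, and with IL12 -0.75 to 1.22 for Foxp3, -0.03 to 0.41 for Ikzf2, -0.17 to 0.27 for Ikzf4 and -0.63 to 0.37 for Ccr6.

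Counts over all genes moved further. KO against WT without cytokine gave 246 genes, 460 with DESeq2, 1099 with only those groups and 7 to 564 with 1 library left out. With TGFB1 it gave 4166 and 2307 with only those groups. With IL12 it gave 794, 504 without a filter, 45 with only those groups and 174 to 1530 with 1 library left out. The difference in TGFB1 responses gave 387, 776 with DESeq2 and 58 to 2155 with 1 library left out. IL12 gave 2209 in WT and 1324 to 2727 with 1 library left out, and 1668 in KO and 1043 to 1612.

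Libraries of 1 number shared some variation: their deviations from the group means had a median correlation of 0.222 (-0.034 to 0.43, 26 of 30 pairs over 0.1), and 26 of 30 libraries correlated best with their own number, a hint from the data that the labels do not state. With the number as a replicate block, 6, 5, 4 and 1 of the 7 genes were called for TGFB1 in WT and KO and IL12 in WT and KO, as without it, and 0 for both differences in response, while 1073 of all genes were called for the difference in TGFB1 responses. No such fit exists for KO against WT, which share no number. The planned test for genes below the filter was not run, since all 7 passed it.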
